A study of Mus musculus with 24 samples.

Results

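Organoids of mouse small intestine, self-organising cultures of the intestinal epithelium, were treated with the control peptide Fz7-21S or with DMSO, a solvent, for 6 h or 24 h, and their polyadenylated RNA was sequenced. Each combination of treatment and time had 4 libraries, so the comparison of Fz7-21S with DMSO used 16 of the 24 libraries of the series. The libraries were chosen by their labelled treatment and time, and Fz7-21S was compared with DMSO at 6 h (4 against 4), at 24 h (4 against 4) and as 1 effect over both times with time as a block (8 against 8). The other 8 libraries came from organoids treated for the same times with dFz7-21, a peptide described by the series as a blocker of the Wnt receptor Frizzled 7. All groups were labelled as primary organoids. The labels give no strain, age, genotype, dose or culture medium. Whether the 4 replicates of a group are separate cultures or come from separate mice is not stated either, and the p-values below therefore reflect library-to-library spread, which may be technical.

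Frizzled 7 is a receptor for Wnt ligands on intestinal stem cells, and Wnt signalling sustains the Lgr5-positive stem cells at the base of the crypt. A control peptide is included to show what treatment with a peptide does apart from engaging the receptor, and its comparison with solvent measures that background. 3 gene programmes recur below. The transcription factor NRF2 responds to oxidants and electrophiles by raising detoxifying reductases, glutathione transferases and glutathione synthesis. ATF4 is the effector of the integrated stress response and raises enzymes and transporters that supply amino acids. The aryl hydrocarbon receptor, AhR, binds aromatic compounds and raises Cyp1a1 and other enzymes of xenobiotic metabolism.

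The 16 libraries held 20446610 to 33102993 counts, at which 3 counts correspond to 0.0906 to 0.147 CPM (the counts-per-million level on TMM-scaled library sizes). 15429 genes passed the filter on low counts, and the median half-width of the 95% confidence interval of a log2 fold change was 0.22 at either time. All 10 epithelial markers had reads in every library, with summed levels at 6 h of 17800 to 18600 CPM in Fz7-21S libraries and 15700 to 18000 CPM in DMSO libraries, and at 24 h of 11100 to 15200 CPM in Fz7-21S libraries and 10900 to 11900 CPM in DMSO libraries. 3 libraries stood apart. Replicate 4 of Fz7-21S at 24 h differed by at least 2-fold from the mean of its group's other replicates in 531 of 11224 genes, against 0 to 22 genes in the other 15 libraries. The sum of its RPKM values, which are counts per gene length, was 558573, against 413476 to 456146 in the other 15 libraries. Whether transcript length played a part in the gene values of that library was not tested. Replicates 1 and 2 of DMSO at 6 h had summed levels of mesenchymal markers of 340 and 311 CPM, against 14.2 and 15.7 CPM in the other 2 DMSO libraries and 11.5 to 14.9 CPM in Fz7-21S libraries of that time. Main results that rest on the 3 libraries that stood apart are given with and without them. Replicate 2 of DMSO at 24 h had the fewest genes with reads of the 16 libraries, 16897, against 19148 to 19482 in the other DMSO libraries of that time.

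At 6 h, 1 gene rose in Fz7-21S organoids and no gene fell. The gene was Cyp1a1 (chr9:57687928-57703824 in GRCm38), a cytochrome P450 that oxidises aromatic compounds and is the best known target of AhR. Cyp1a1 had 350, 327, 354 and 357 CPM in Fz7-21S libraries, against 235, 210, 232 and 200 CPM in DMSO libraries. Every Fz7-21S library lay above every DMSO library. The level was 1.58-fold higher, a log2 fold change of 0.66 (SE 0.095, 95% interval 0.47 to 0.86, adjusted p = 0.00533 by edgeR's quasi-likelihood test with Benjamini-Hochberg adjustment). The 1 gene called higher is 0.00648% of the genes tested. The smallest adjusted p among all other genes was 0.999. At an unadjusted p below 0.05, 318 genes were higher (2.06%) and 296 lower (1.92%), together 3.98% of genes, and DESeq2 called 4 genes. These were Cyp1a1 and Gclm, both higher, and Col5a2 and Axl, both lower. Col5a2 encodes a fibrillar collagen and Axl a receptor kinase of mesenchymal cells. Of the 7 mesenchymal markers tested, 6 were lower at an unadjusted p below 0.05, with a median log2 fold change of -4.96 with all libraries and of -0.36 (8 markers tested) without replicates 1 and 2 of DMSO. Without those 2 libraries Cyp1a1 kept a log2 fold change of 0.69 but had an adjusted p of 0.222. It also missed the threshold without DMSO replicate 2 alone (adjusted p = 0.052) and without DMSO replicate 4 alone (adjusted p = 0.066), when no gene was called.

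By 24 h, 40 genes had risen in Fz7-21S organoids (0.259% of the genes tested) and none had fallen. Most belonged to glutathione and antioxidant metabolism, to amino acid synthesis or to xenobiotic metabolism. The changes were small. They ran from 1.15-fold (Psat1) to 2.01-fold (Adm2), with a median of 1.37-fold, and only Adm2 reached 2-fold. Without replicate 4 of Fz7-21S the log2 fold change of Adm2 was 0.85, below 2-fold. In all 40 genes every Fz7-21S library lay above every DMSO library, as did 2.74% of all genes tested. 11 of the 40 were on the list of NRF2 targets and glutathione enzymes, 15 on the list of ATF4 targets and amino acid enzymes and 5 on the list of AhR targets and xenobiotic enzymes, with 1 gene (Nqo1) shared, so that 10 were on none. At an unadjusted p below 0.05, 2144 genes were higher (13.9%) and 1529 lower (9.91%), together 23.8% of genes, and DESeq2 called 101 higher and 17 lower, 37 of the 40 among them. In bulk libraries, a change in the share of a cell type cannot be told apart from a change in RNA per cell.

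**Figure D1:**
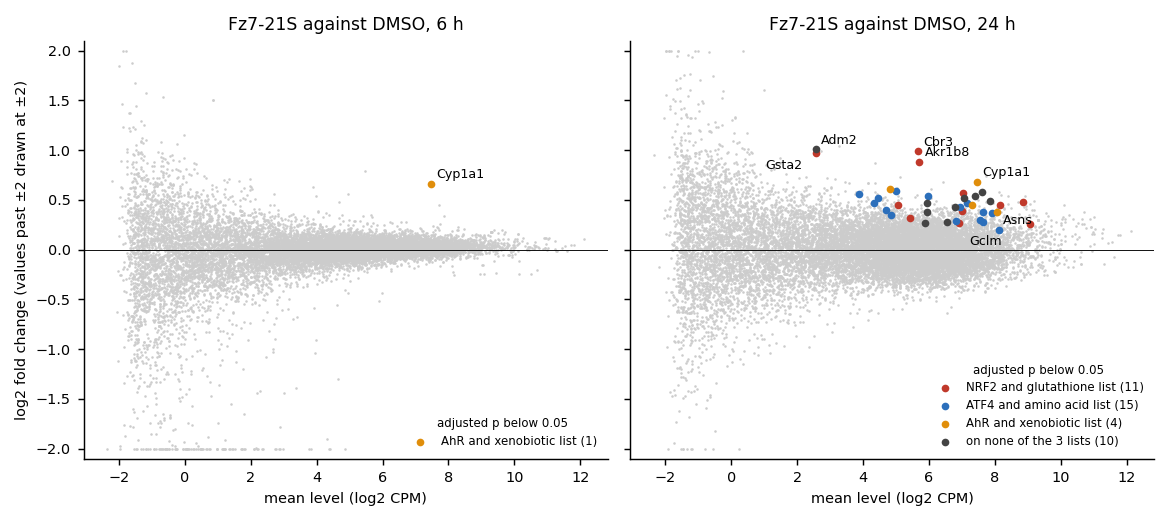
Log2 fold change of Fz7-21S against DMSO (y axis, values beyond ±2 drawn at ±2) against mean level (x axis, log2 CPM) for the 15429 genes tested, at 6 h (left) and 24 h (right). Grey points did not pass the adjusted p of 0.05. Coloured points are the 1 gene called at 6 h and the 40 called at 24 h, by list (Nqo1, on 2 lists, is drawn with the NRF2 list), and all of them lie above 0.

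The number of calls at 24 h depended on single libraries. Without replicate 4 of Fz7-21S, 41 genes rose, 35 of them among the 40. The 5 that no longer passed were Ces1f (log2 fold change 0.39, adjusted p = 0.0508), Ces2a (0.31, adjusted p = 0.206), Muc3 (0.41, adjusted p = 0.333), Gstm1 (0.38, adjusted p = 0.365) and Acta1 (0.39, adjusted p = 0.411). Without replicate 1 of Fz7-21S, 1390 genes passed (880 higher, 510 lower), all 40 among them. Without replicate 2 of DMSO, 22 genes passed, all among the 40. All 40 log2 fold changes were positive in each of the alternative fits. The 40 were called in these same data and their groups did not overlap, so leaving out a library could hardly reverse a sign.

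NRF2 targets and glutathione enzymes made up 11 of the 40 genes. Of the 44 list members tested, 11 rose (0.259% of all genes did) and none fell. 39 members were above 0 (51.7% of all genes were), and the median log2 fold change was 0.26, beside 0.01 over all genes. Without replicate 4 of Fz7-21S, 12 members rose and the median was 0.16. Enzymes that reduce carbonyls and quinones were among them. Cbr3 (chr16:93683219-93690991), a carbonyl reductase, had 62.5, 72.1, 72 and 102 CPM in Fz7-21S libraries, against 40.4, 38, 33.6 and 43.5 CPM in DMSO libraries. Akr1b8 (chr6:34354146-34368461), an aldo-keto reductase that removes reactive aldehydes, had 49.7, 48, 54.9 and 69.7 CPM in Fz7-21S libraries, against 32.8, 27.2, 26.4 and 33.8 CPM in DMSO libraries. The groups did not overlap for either gene, and replicate 4 was the highest Fz7-21S library in both. Their log2 fold changes were 0.99 (SE 0.11) for Cbr3 and 0.88 (SE 0.094) for Akr1b8, each with an adjusted p of 2.25e-05, and without replicate 4 they were 0.82 and 0.76. Nqo1, the quinone reductase often used as the readout of NRF2, had 143, 141, 136 and 136 CPM in Fz7-21S libraries, against 112, 103, 96.5 and 112 CPM in DMSO libraries. In Nqo1 replicate 4 was not apart from the other Fz7-21S libraries. The log2 fold change was 0.39 (SE 0.055, adjusted p = 0.00065). Cbr1, the neighbour and paralog of Cbr3, had a log2 fold change of 0.45.

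Genes of glutathione synthesis and transfer rose as well. Gclm (chr3:122245487-122267215), the modifier subunit of the enzyme that starts glutathione synthesis, had 152, 158, 150 and 155 CPM in Fz7-21S libraries, against 132, 129, 121 and 129 CPM in DMSO libraries. The spread within each group was narrow, and the log2 fold change was 0.27 (SE 0.043, adjusted p = 0.00305). Gsta3, a glutathione transferase that also acts on steroids, had 201, 212, 195 and 272 CPM in Fz7-21S libraries, against 159, 141, 137 and 157 CPM in DMSO libraries, a log2 fold change of 0.57 (SE 0.079, adjusted p = 0.00065), and of 0.44 without replicate 4 of Fz7-21S. Its paralog Gsta2 was rare, at 5.51, 5.66, 5.53 and 7.46 CPM in Fz7-21S libraries, against 3.8, 2.05, 2.89 and 3.42 CPM in DMSO libraries, and had a log2 fold change of 0.98. Only uniquely aligning reads were counted, so reads shared by near-identical transferases may be missing. The values of Gsta2, Gsta3 and Gstm1 (log2 fold change 0.48, not called without replicate 4) are therefore uncertain. The remaining list members called were Me1, the malic enzyme that supplies NADPH (0.45, overlapping A330041J22Rik), Osgin1, an oxidative stress response gene (0.32), and Ugdh, which makes the sugar donor for glucuronidation (0.26). Other known targets did not pass: Srxn1 had a log2 fold change of 0.25 (adjusted p = 0.0507), Gclc 0.16, Hmox1 0.13 and Txnrd1 -0.02, and Nfe2l2, which encodes NRF2, -0.03. These 5 were named for their role after their values were seen.

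**Figure D2:**
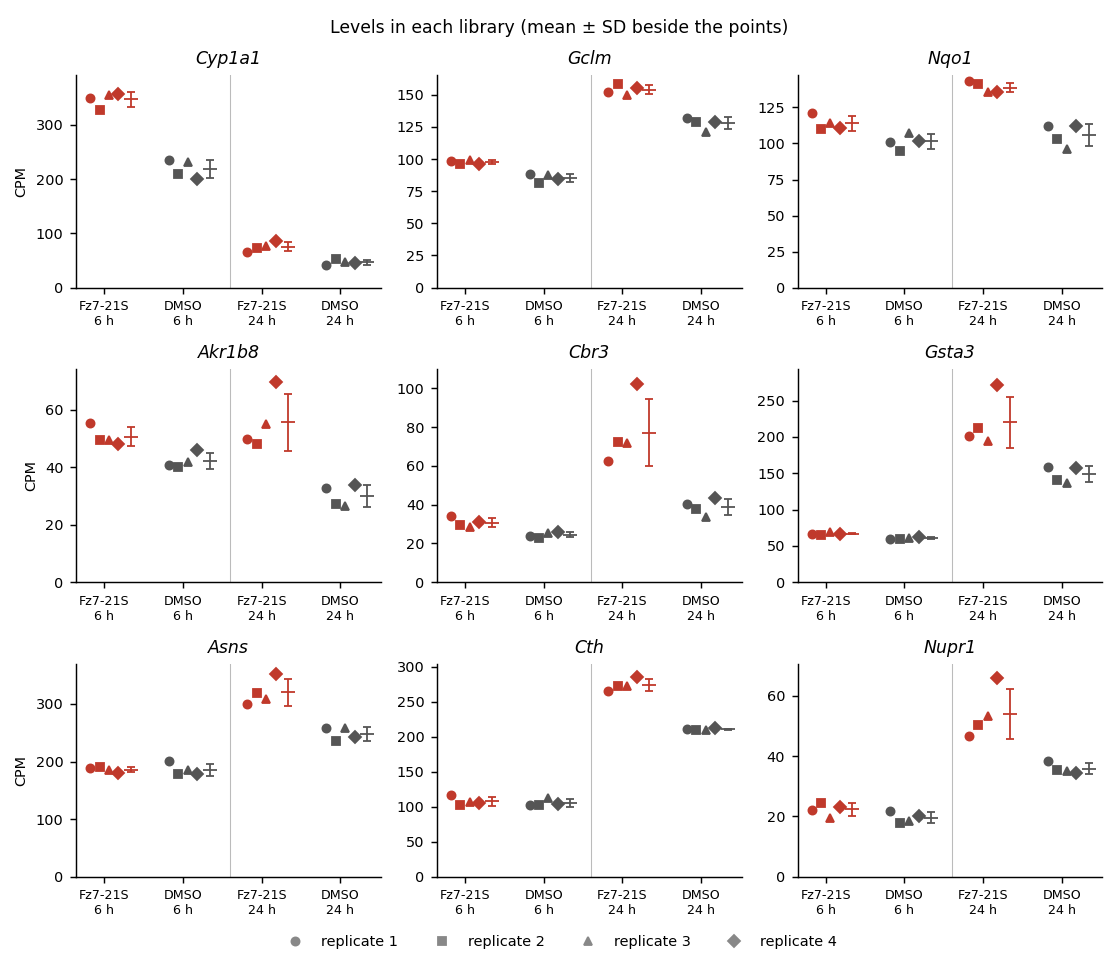
Levels of 9 genes in each library (y axis, CPM, from 0), with Fz7-21S (red) left of DMSO (grey) at 6 h and at 24 h; marker shape gives the replicate number and the bar the mean ± SD of 4 libraries. Cyp1a1 is separated at both times (Fz7-21S at 327 to 357 CPM and DMSO at 200 to 235 CPM at 6 h), whereas Asns and Cth are separated at 24 h only.

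The ATF4 list had 15 of its 45 tested members called, all higher (0.259% of all genes were). 40 members were above 0 (51.7% of all genes were), with a median log2 fold change of 0.25. Without replicate 4 of Fz7-21S, 17 members rose and the median was 0.21. The called genes covered the synthesis of asparagine, cysteine, alanine, serine and proline and the mitochondrial one-carbon pathway. Cth, which makes cysteine from cystathionine, had 265, 273, 273 and 286 CPM in Fz7-21S libraries, against 211, 210, 210 and 212 CPM in DMSO libraries. The 4 DMSO libraries were within 2 CPM of each other, and the log2 fold change was 0.38 (SE 0.050, adjusted p = 0.000329). Asns (chr6:7675165-7693209), asparagine synthetase, had 299, 319, 309 and 352 CPM in Fz7-21S libraries, against 258, 235, 259 and 242 CPM in DMSO libraries, a log2 fold change of 0.36 (SE 0.052, adjusted p = 0.00065). Gpt2, the mitochondrial alanine aminotransferase, had 39.2, 43.7, 41.9 and 37.5 CPM in Fz7-21S libraries, against 30.6, 30.7, 31.6 and 30.7 CPM in DMSO libraries. Here replicate 4 was the lowest of the Fz7-21S libraries, and the log2 fold change was 0.39 (SE 0.064, adjusted p = 0.00337). Nupr1, a small stress-induced nuclear protein, had 46.5, 50.3, 53.2 and 65.8 CPM in Fz7-21S libraries, against 38.4, 35.5, 35.2 and 34.3 CPM in DMSO libraries, a log2 fold change of 0.59 (SE 0.094, adjusted p = 0.00305). Pycr1, the last enzyme of proline synthesis, had 19.1, 22.3, 21.6 and 18.8 CPM in Fz7-21S libraries, against 12.9, 13.3, 15.5 and 13.7 CPM in DMSO libraries, a log2 fold change of 0.56 (SE 0.096, adjusted p = 0.00471).

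The 3 enzymes of serine synthesis all rose. Their log2 fold changes were 0.54 for Psph, 0.52 for Phgdh and 0.20 for Psat1. Without replicate 4 of Fz7-21S they were 0.37, 0.42 and 0.22, in that order. Psph overlaps Cct6a, so its value is uncertain because strand-specific counting is not stated. Shmt2 (0.28) and Mthfd2 (0.29), which feed serine carbon into the mitochondrial folate cycle, rose by like amounts, Shmt2 with the same limit because it overlaps Ndufa4l2. Pck2, the mitochondrial enzyme that makes phosphoenolpyruvate, had a log2 fold change of 0.43, and Slc3a2, the heavy chain of several amino acid transporters, 0.29. The regulators Atf5 (0.47) and Trib3 (0.47), a transcription factor and a pseudokinase of the stress response, and Chac1 (0.35), which degrades glutathione, completed the set. Atf5 overlaps Nup62 and Il4i1b. Atf4 itself had a log2 fold change of 0.28 (adjusted p = 0.125) and Ddit3, which encodes the stress factor CHOP, 0.46 (adjusted p = 0.162), neither of which passed. Without replicate 4 of Fz7-21S, 6 further genes passed at 24 h, among them Slc7a11, the cystine transporter (log2 fold change 0.68, adjusted p = 0.000432), and Aldh1l2, a mitochondrial folate enzyme (0.62, adjusted p = 7.32e-05). These last 4 were named after their values were seen.

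Promoters of these genes were searched for the motifs the 3 factors are known to bind, in the 250 bases before the RefSeq start (GRCm38.p6) and on both strands. 35 of the 40 called genes had a promoter in the table. TGATGNAA, the composite element bound by ATF4 with a partner, was in 5 of the 35, and all 5 were among the 14 genes of the ATF4 list with a promoter (Chac1, Asns, Nupr1, Pycr1 and Pck2). It was in 3.45% of the 32851 windows of the table. TGACNNNGC, the antioxidant response element, was in 3 of the 11 called NRF2 list genes (Gsta3, Gclm and Ugdh), in 2 of the 14 ATF4 list genes and in 10.2% of all windows. TNGCGTG, the xenobiotic response element, was in 4.1% of all windows and in none of the 4 called AhR list genes with a promoter, Cyp1a1 included; among the 35 it was in Gsta2 alone. The motifs can overlap by chance, a match does not show binding, and the absence of a match says nothing about sites outside this window. Stretches of 180 bases, from 250 to 71 bases before the start, are shown for a gene of each list, Chac1 (chr2:119350992-119351171, plus strand) and Gclm (chr3:122245307-122245486, plus strand), with the match in capitals; both matches lie on the minus strand and so read TTGCATCA and GCACCGTCA here. For the other genes 28 or 29 bases around the match are shown, on the strand on which they read as the motif: Asns chr6:7693215-7693242 (minus), Nupr1 chr7:126625563-126625590 (plus), Pycr1 chr11:120643834-120643861 (minus), Pck2 chr14:55540153-55540180 (minus), Gsta3 chr1:21240454-21240482 (plus) and, for the 2 matches of Ugdh, chr5:65435956-65435984 (minus) and chr5:65435918-65435946 (plus). They let the shared core and the variable bases around it be compared.
Chac1: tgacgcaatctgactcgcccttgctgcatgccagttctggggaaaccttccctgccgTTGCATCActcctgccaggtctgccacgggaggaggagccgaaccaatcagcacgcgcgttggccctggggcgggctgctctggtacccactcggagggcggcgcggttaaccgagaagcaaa
Asns: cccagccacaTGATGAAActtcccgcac
Nupr1: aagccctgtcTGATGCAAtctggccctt
Pycr1: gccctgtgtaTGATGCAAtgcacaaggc
Pck2: tgtaagatacTGATGTAActttgaaggc
Gclm: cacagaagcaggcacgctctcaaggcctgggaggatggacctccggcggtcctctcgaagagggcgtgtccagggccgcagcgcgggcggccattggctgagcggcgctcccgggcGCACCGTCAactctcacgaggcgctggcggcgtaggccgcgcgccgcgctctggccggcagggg
Gsta3: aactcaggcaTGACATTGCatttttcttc
Ugdh, minus strand: gcggagcccgTGACTTAGCtggagctgat
Ugdh, plus strand: ccgaactgtaTGACCACGCcccttgagga

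Xenobiotic enzymes other than Cyp1a1 rose at 24 h as well. 5 of the 29 tested members of the AhR and xenobiotic list were called, all higher (0.259% of all genes were). The median log2 fold change was 0.19, and 3 members were called without replicate 4 of Fz7-21S. Cyp1a1 was less abundant at 24 h than at 6 h in both treatments, at 65.5, 73.3, 77.2 and 86.3 CPM in Fz7-21S libraries and 41.4, 52.7, 48.1 and 46.1 CPM in DMSO libraries at 24 h. The groups did not overlap, and the log2 fold change was 0.68 (SE 0.098, adjusted p = 0.000773), a 1.61-fold difference. Ces1g, a carboxylesterase that hydrolyses drugs and lipid esters, had 35, 35, 33.5 and 39.1 CPM in Fz7-21S libraries, against 25.1, 21.4, 21.2 and 25.8 CPM in DMSO libraries, a log2 fold change of 0.61 (SE 0.078, adjusted p = 0.000272). The related Ces1f had 162, 175, 179 and 200 CPM in Fz7-21S libraries, against 130, 118, 123 and 152 CPM in DMSO libraries, and Ces2a had a log2 fold change of 0.38. Neither was called without replicate 4 of Fz7-21S. Reads shared by these esterase paralogs may likewise be missing from the counts. Ahrr and Tiparp, 2 further targets of AhR that were named for that role after their values were seen, had log2 fold changes of 0.81 (adjusted p = 0.288) and -0.15 (adjusted p = 0.466), and neither passed. The Ugt1a6a and Ugt1a6b models, which share most exons with their neighbours, each had a log2 fold change of 0.30 (adjusted p = 0.0507).

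10 called genes were on none of the 3 lists, 2 of them without a symbol in the annotation used. Adm2, which encodes the peptide hormone adrenomedullin 2, had 8.04, 9.46, 11.1 and 14 CPM in Fz7-21S libraries, against 5.85, 4.81, 5.85 and 4.57 CPM in DMSO libraries, a log2 fold change of 1.01 (SE 0.17, adjusted p = 0.00506), and of 0.85 without replicate 4 of Fz7-21S. Slc25a20, which carries acylcarnitines into mitochondria for fatty acid oxidation, had 59.2, 65.4, 60.8 and 69.6 CPM in Fz7-21S libraries, against 52.4, 42.9, 48.5 and 51.6 CPM in DMSO libraries, a log2 fold change of 0.38 (SE 0.065, adjusted p = 0.00457). Mgst2, a microsomal glutathione transferase, had 261, 288, 274 and 487 CPM in Fz7-21S libraries, against 227, 215, 211 and 223 CPM in DMSO libraries. Replicate 4 was far above the others, and the log2 fold change was 0.58 (adjusted p = 0.0465) with that library and 0.32 (adjusted p = 0.00125) without it. The others were Eif4ebp1, a translation repressor (0.43, and 0.31 without replicate 4), Muc3, a membrane mucin (0.52, not called without replicate 4), Iah1, an esterase (0.47, and 0.27 without replicate 4), Phf10, a chromatin remodelling subunit (0.28), and Acta1, an actin of muscle (0.49, not called without replicate 4). Iah1 and Phf10 overlap other gene models.

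**Figure D3:**
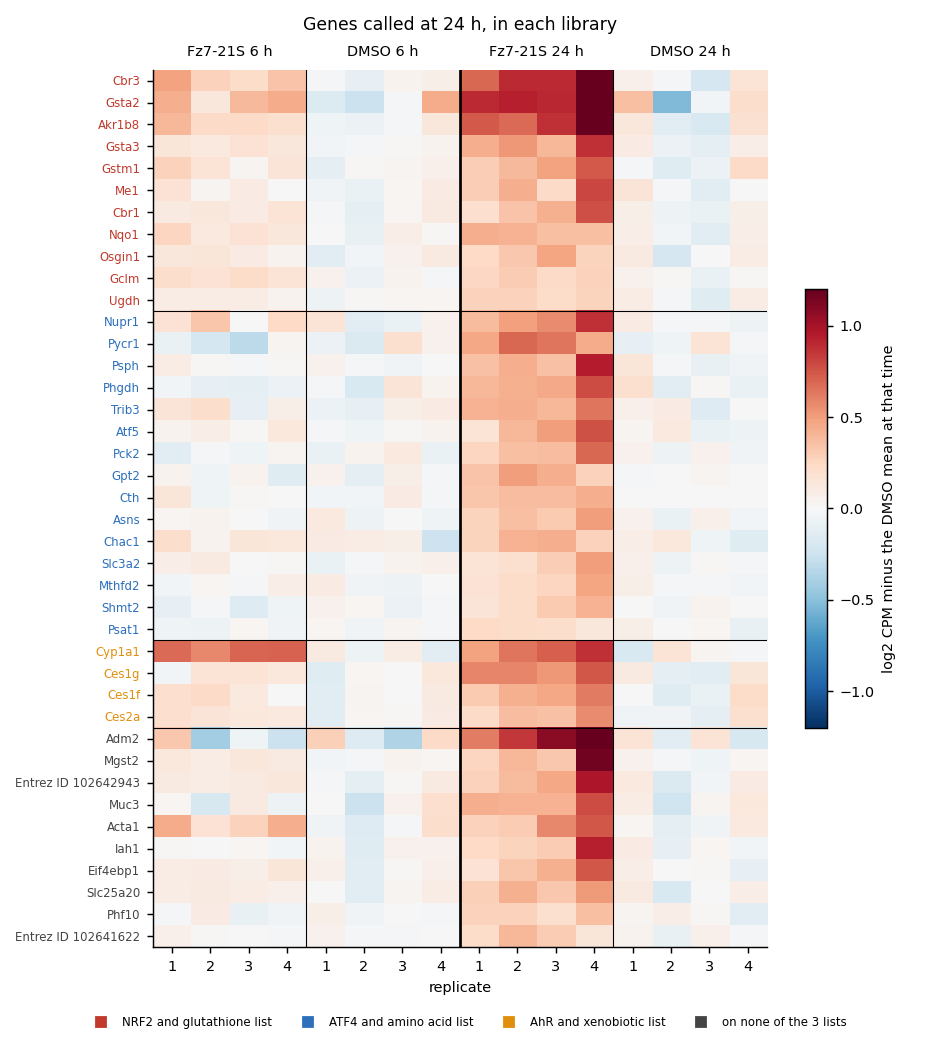
Level of each of the 40 genes called at 24 h in all 16 libraries, as log2 CPM minus the mean of the DMSO libraries of the same time (colour scale, drawn to ±1.2), with genes in rows grouped by list and libraries in columns. Every Fz7-21S library at 24 h is above the DMSO libraries in all 40 genes; at 6 h 10 of the 40 are separated.

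Other stress and metabolic lists had 1 called gene or none. Of all genes tested at 24 h, 0.259% were called, and 13.9% were higher and 9.91% lower at an unadjusted p below 0.05 (edgeR). None of the 30 tested genes of the list of endoplasmic reticulum chaperones and XBP1 or ATF6 targets was called (edgeR; 8 higher and 1 lower at an unadjusted p below 0.05), with a median log2 fold change of 0.07 and, at the 4 smallest p, Selenos at 0.28, Herpud1 at 0.12, Xbp1 at 0.13 and Sec61b at 0.36 (adjusted p = 0.162 to 0.164). Sec61b was at 42.1 CPM in replicate 4 and 21.3 to 23.1 CPM in the other Fz7-21S libraries, against 19 to 23.2 CPM in DMSO libraries. Selenos was at 132 CPM in replicate 4 and 90.9 to 93.4 CPM in the other Fz7-21S libraries, against 79.1 to 88.2 CPM in DMSO libraries. Among 26 genes of fatty acid oxidation and PPAR targets, Slc25a20 was the single call. Creb3l3, a lipid regulator, had a log2 fold change of 0.39 (adjusted p = 0.0944), and Cpt2, which takes up fatty acids with Slc25a20, 0.16 (adjusted p = 0.162). No member of the metallothionein and zinc transport list passed (5 higher and 2 lower at an unadjusted p below 0.05). Mt2, a metal-binding thionein, had 98.4, 108, 132 and 198 CPM in Fz7-21S libraries, against 81.3, 84.3, 84.8 and 84 CPM in DMSO libraries (log2 fold change 0.68, adjusted p = 0.0507). Mt1 had a log2 fold change of 0.54 (adjusted p = 0.147), and the zinc importer Slc39a8 had one of -0.26 (adjusted p = 0.162), with every Fz7-21S library below every DMSO library, as in 2.52% of all genes tested. Mt4 was near the floor, at 0.759 to 1.78 CPM in Fz7-21S libraries and 0 to 0.535 CPM in DMSO libraries.

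The medians of several lists moved with replicate 4 of Fz7-21S. Nuclear-encoded respiratory chain genes had a median log2 fold change of 0.26 with all libraries and 0.06 without replicate 4 (34 tested, none called, 25 and 6 higher at an unadjusted p below 0.05). Proteasome subunits had medians of 0.19 and 0.04 (31 tested, none called, 19 and 2 higher at an unadjusted p below 0.05). Over all genes, the number at that p in either direction also fell, from 3673 of 15429 to 1182 of 15709. The NRF2 and ATF4 lists kept medians of 0.16 and 0.21 without that library. The corresponding medians were 0.07 and 0.01 for the endoplasmic reticulum list, 0.15 and 0.14 for the enterocyte list and 0.20 and 0.06 for the Paneth cell list.

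**Figure D4:**
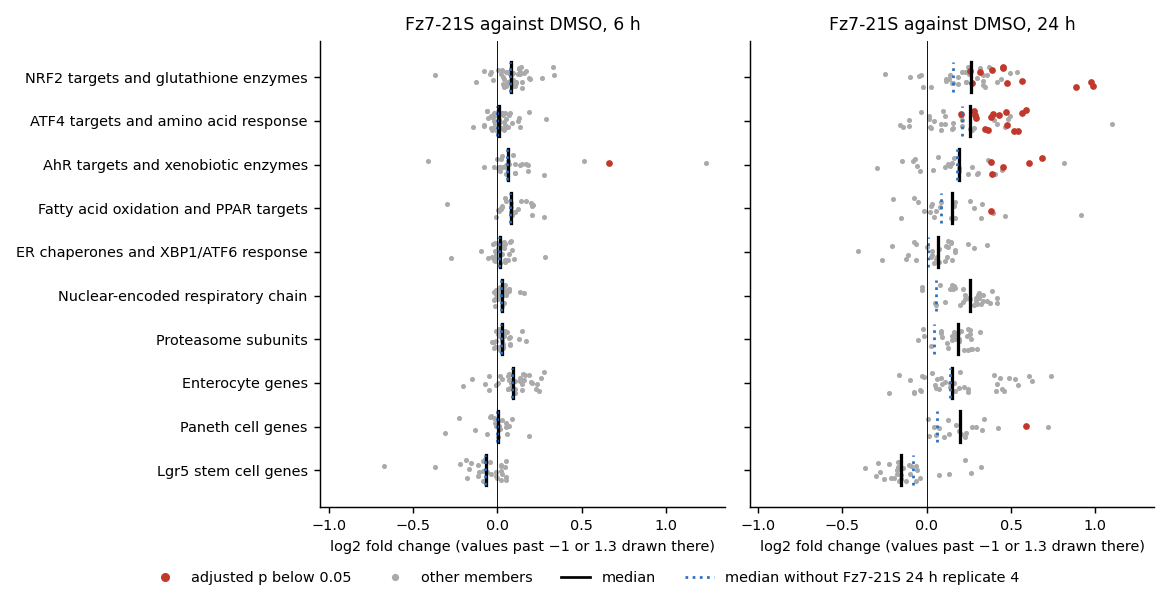
Log2 fold change of Fz7-21S against DMSO for the tested members of 10 gene lists at 6 h (left) and 24 h (right), with called genes in red, the list median as a black bar and the median without replicate 4 of Fz7-21S at 24 h as a dotted blue bar. At 24 h the medians of the NRF2 and ATF4 lists are 0.26 and 0.25 with all libraries and 0.16 and 0.21 without that replicate, while that of the respiratory chain list is 0.26 with it and 0.06 without it.

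None of the 12 stem cell, Wnt, proliferation and lineage genes followed in every comparison was called at either time. None of the 30 tested genes of the Lgr5 stem cell list passed at 24 h (edgeR). At an unadjusted p below 0.05 in that test, 1 was higher and 7 lower, beside 13.9% higher and 9.91% lower among all genes. The median log2 fold change of the list was -0.15, and -0.08 without replicate 4 of Fz7-21S. Lgr5, the stem cell receptor for R-spondins, had 90.1, 79.6, 96 and 55.1 CPM in Fz7-21S libraries, against 80, 91.5, 125 and 91.9 CPM in DMSO libraries at 24 h. The groups overlapped and replicate 4 was the lowest, with a log2 fold change of -0.27 (95% interval -0.60 to 0.05, adjusted p = 0.272). Fzd7, which encodes Frizzled 7, had 49.5, 45.7, 46.1 and 31.7 CPM in Fz7-21S libraries, against 49.6, 58, 47.3 and 53.2 CPM in DMSO libraries (-0.26, 95% interval -0.51 to -0.02, adjusted p = 0.185). The Wnt target Axin2 had a log2 fold change of -0.23 (95% interval -0.45 to -0.003, adjusted p = 0.205) and the stem cell factor Ascl2 0.32 (95% interval -0.02 to 0.66, adjusted p = 0.228). Axin2 was at 262, 245, 249 and 170 CPM in Fz7-21S libraries, against 250, 263, 296 and 275 CPM in DMSO libraries. Ascl2 was at 29, 32.7, 34.5 and 50.8 CPM, against 31, 28, 32.4 and 26.1 CPM. In both genes replicate 4 of Fz7-21S lay furthest from the DMSO libraries. Olfm4 and Smoc2, abundant stem cell products, had log2 fold changes of -0.10 and -0.07. At 6 h Smoc2 had 136, 145, 138 and 144 CPM in Fz7-21S libraries, against 150, 162, 164 and 157 CPM in DMSO libraries, without overlap (as were 1.52% of all genes in that direction) but with an adjusted p of 0.999. A p that misses the threshold does not show that the levels were equal, and the intervals above leave room for changes of the size of the called genes.

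Among markers of the other cell types, the 6 genes followed throughout were not called. At 24 h the log2 fold changes were -0.29 for the proliferation gene Mki67 (adjusted p = 0.178), 0.14 for the enterocyte phosphatase Alpi (0.398), 0.24 for the goblet cell mucin Muc2 (0.177), 0.01 for the Paneth cell lysozyme Lyz1 (0.967), 0.27 for the enteroendocrine granin Chga (0.178) and -0.53 for the tuft cell kinase Dclk1 (0.162). Dclk1 had 5.76, 5.61, 6.98 and 2.63 CPM in Fz7-21S libraries, against 7.64, 5.85, 8.05 and 8.94 CPM in DMSO libraries. Mki67 had 389, 361, 348 and 203 CPM in Fz7-21S libraries, against 370, 410, 374 and 432 CPM in DMSO libraries. Chga had 29.3, 26.6, 31 and 43 CPM, against 28.3, 23.7, 29.2 and 26.2 CPM. In each of these genes replicate 4 of Fz7-21S lay furthest from the DMSO libraries. None of 38 enterocyte genes passed, but 15 were higher at an unadjusted p below 0.05 (13.9% of all genes were) and 6 had no overlap, with a median log2 fold change of 0.15; without replicate 4 of Fz7-21S, 6 were higher. Of 18 goblet cell genes none passed and 7 were higher at that p, and 3 without replicate 4. Of 20 Paneth cell genes Nupr1, also on the ATF4 list, was the single call, and all 20 were above 0 (51.7% of all genes were). 10 of the 20 were higher at an unadjusted p below 0.05, and 3 without replicate 4. Over all genes, the number at that p in either direction was 3673 of 15429 with replicate 4 and 1182 of 15709 without it. At 6 h the enterocyte median was 0.09 with all libraries and -0.05 without replicates 1 and 2 of DMSO, so its sign depended on them.

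The genes called at 24 h were next read at 6 h. The 2 comparisons set different libraries against each other but came from 1 fit with a common filter and estimate of spread, and leaving out any 1 library of 6 h gave 28 to 34 calls at 24 h in place of 40. Of the 40, 31 had a log2 fold change above 0 at 6 h, 10 had every Fz7-21S library above every DMSO library (3.08% of all genes tested did) and 7 had an unadjusted p below 0.05. Of 44 NRF2 list genes, 38 were above 0 at 6 h (53.9% of all genes were) and 12 were separated, with a median log2 fold change of 0.08 (0.05 without replicates 1 and 2 of DMSO). The epithelial markers were higher by a like amount: all 10 were above 0 and 4 separated, with a median of 0.09 (0.06 without those libraries), and their part in the shift of the list was not tested. Of 45 ATF4 list genes, 26 were above 0 and 3 were separated, with a median of 0.01, equal to that over all genes. Akr1b8 had 55.3, 49.4, 49.5 and 48.2 CPM in Fz7-21S libraries, against 40.7, 40.1, 41.7 and 46.1 CPM in DMSO libraries at 6 h. Nqo1 had 121, 110, 114 and 111 CPM in Fz7-21S libraries, against 101, 94.8, 107 and 102 CPM in DMSO libraries. Gclm had 98.5, 96.3, 99.2 and 95.9 CPM in Fz7-21S libraries, against 88.2, 81.3, 87.8 and 84.3 CPM in DMSO libraries. In all 3 the groups were separated at 6 h, with log2 fold changes of 0.26, 0.17 and 0.19, and each had an adjusted p of 0.999. By contrast Asns had 188, 191, 186 and 180 CPM in Fz7-21S libraries, against 201, 178, 185 and 179 CPM in DMSO libraries, a log2 fold change of 0.004.

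The change of the effect between the times was tested directly, and no gene passed (edgeR; at an unadjusted p below 0.05, 666 genes, 4.32%, had a higher and 694, 4.5%, a lower effect at 24 h, together 8.81%). DESeq2 called 8 genes, each with a larger effect at 24 h, 6 of them on the ATF4 list. The 5 genes with the smallest p in edgeR were Pycr1, Asns, Cth and Tmem86a, with adjusted p = 0.227 each, and Akr1b8, with adjusted p = 0.269. Their effects at 24 h exceeded those at 6 h by 0.71, 0.36, 0.35, 0.61 and 0.62 on the log2 scale, in that order. Without the 3 libraries that stood apart, Pycr1 passed. For Cyp1a1 the effects at the 2 times differed by 0.02 (95% interval -0.26 to 0.30).

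Over both times, 2 genes rose and none fell (0.013% of genes tested were called; edgeR). Cyp1a1 had a log2 fold change of 0.67 (SE 0.058, adjusted p = 1.51e-05), or 1.59-fold, higher in 8 of 8 libraries than any DMSO library of its time. Gclm had a log2 fold change of 0.23 (SE 0.034, adjusted p = 0.0198), or 1.17-fold, and was likewise separated at both times, as were 35 genes (0.227%) in all. In the other direction 3 genes (0.0194%) were separated at both times. At an unadjusted p below 0.05, 811 genes were higher (5.26%) and 472 lower (3.06%), together 8.32%, and DESeq2 called 29 higher and 3 lower. Cbr3 and Nqo1, which passed at 24 h, came next to the threshold with an adjusted p of 0.0575 each. Without replicate 4 of Fz7-21S at 24 h, 28 genes passed (26 higher, 2 lower), among them Nqo1, Srxn1, Gsta3, Cbr3, Akr1b8, Nupr1 and 8 Ugt1a models that share exons and cannot be told apart. Without replicates 1 and 2 of DMSO at 6 h, Cyp1a1 alone passed, and without all 3 libraries 19 genes did (18 higher, 1 lower). Gclm also missed the threshold without replicate 1, 2 or 3 of Fz7-21S at either time, without replicate 2 of DMSO at 6 h or without any 1 DMSO library at 24 h. Without DMSO replicate 3 or 4 at 6 h, 6 and 9 genes passed.

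Fewer genes were called for Fz7-21S than for dFz7-21 at 24 h, measured against the same DMSO libraries. The 40 calls for Fz7-21S became 22 without replicate 2 of DMSO, 118 with DESeq2 and 1390 without replicate 1 of Fz7-21S. Their number therefore does not measure how many genes Fz7-21S affected. At an adjusted p below 0.05, dFz7-21 raised 2804 genes (18.2%) and lowered 2733 (17.7%) relative to DMSO, and 2551 genes (16.5%) were higher and 2651 (17.2%) lower in dFz7-21 than in Fz7-21S organoids. The labels give no dose for either peptide, so the 2 are compared at matched times only. Replicate 3 of dFz7-21 at 24 h had a summed level of mesenchymal markers of 1590 CPM, against 13.6 to 19.9 CPM in the other 3, and all 7 mesenchymal markers tested were called higher with dFz7-21 than with DMSO. Without that library, a setting chosen after seeing the data, 1 of the 7 was, 2708 genes were higher and 2288 lower with dFz7-21 than with DMSO, and 2564 were higher and 2067 lower than with Fz7-21S. Because the comparisons share libraries, each gene's values are given side by side and the difference between the peptides was tested directly over all genes.

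The stem cell genes separated the peptides. Lgr5 averaged 3.83 ± 1.24 CPM with dFz7-21, 80.2 ± 18.1 CPM with Fz7-21S and 97.1 ± 19.3 CPM with DMSO at 24 h (SD, n = 4 each), and the log2 fold change of dFz7-21 against Fz7-21S was -4.39. Olfm4 (-4.23) and Smoc2 (-2.04) also differed between the peptides, as did 29 of the 30 tested genes of the stem cell list, all lower with dFz7-21. Fzd7 averaged 30.2 ± 7.00 CPM with dFz7-21, 43.3 ± 7.86 CPM with Fz7-21S and 52.0 ± 4.66 CPM with DMSO, a difference between the peptides of -0.52 (adjusted p = 0.00176).

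The genes raised by Fz7-21S fell into several patterns against dFz7-21. Cyp1a1 had a log2 fold change of 0.66 with dFz7-21 and of 0.68 with Fz7-21S, and the peptides differed by -0.02 (95% interval -0.23 to 0.18, adjusted p = 0.871). Asns (0.38 with dFz7-21, 0.36 with Fz7-21S, difference 0.01, 95% interval -0.09 to 0.12) and Gsta3 (0.57 with either, difference 0.003, 95% interval -0.16 to 0.17) did not differ beyond these intervals. Without replicate 4 of Fz7-21S, the effects of Fz7-21S against DMSO were 0.61 for Cyp1a1, 0.31 for Asns and 0.44 for Gsta3. The differences between the peptides were not recomputed without that library. Nqo1 (0.80 with dFz7-21, 0.39 with Fz7-21S, adjusted p = 2.7e-06 for the difference), Cth (0.89 with dFz7-21, 0.38 with Fz7-21S, adjusted p = 2.99e-08) and Ces1g (1.79 with dFz7-21, 0.61 with Fz7-21S, adjusted p = 3.56e-11) were higher with dFz7-21. Nupr1 went the other way. Its levels at 24 h were 34.9, 36.3, 37.6 and 30.1 CPM with dFz7-21, 46.5, 50.3, 53.2 and 65.8 CPM with Fz7-21S and 38.4, 35.5, 35.2 and 34.3 CPM with DMSO, so Fz7-21S alone was separated from DMSO, and the difference between the peptides was -0.63 (adjusted p = 1.27e-05). Pycr1 (-0.35, adjusted p = 0.00636) and Pck2 (-0.24, adjusted p = 0.0102) were lower with dFz7-21 than with Fz7-21S as well. Their effects of Fz7-21S against DMSO without replicate 4 of Fz7-21S were 0.60 for Pycr1 and 0.33 for Pck2, and that of Nupr1 was 0.48. Without replicate 3 of dFz7-21, the called differences above kept their direction and call, while Phgdh lost its call (-0.27, adjusted p = 0.0252 with it and -0.19, adjusted p = 0.148 without it) and Gclm gained one (0.06, adjusted p = 0.265 with it and 0.13, adjusted p = 0.0308 without it). On the NRF2 list 23 of 44 tested genes were higher and 2 lower with dFz7-21 than with Fz7-21S, beside 16.5% and 17.2% of all genes. On the ATF4 list 11 of 45 were higher, a larger share than the 16.5% of all genes, and 8 were lower, a share near the 17.2% of all genes. At 6 h Cyp1a1 averaged 290 ± 38.0 CPM with dFz7-21 and 347 ± 13.8 CPM with Fz7-21S, a difference of -0.26 that did not pass (adjusted p = 0.113).

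**Figure D5:**
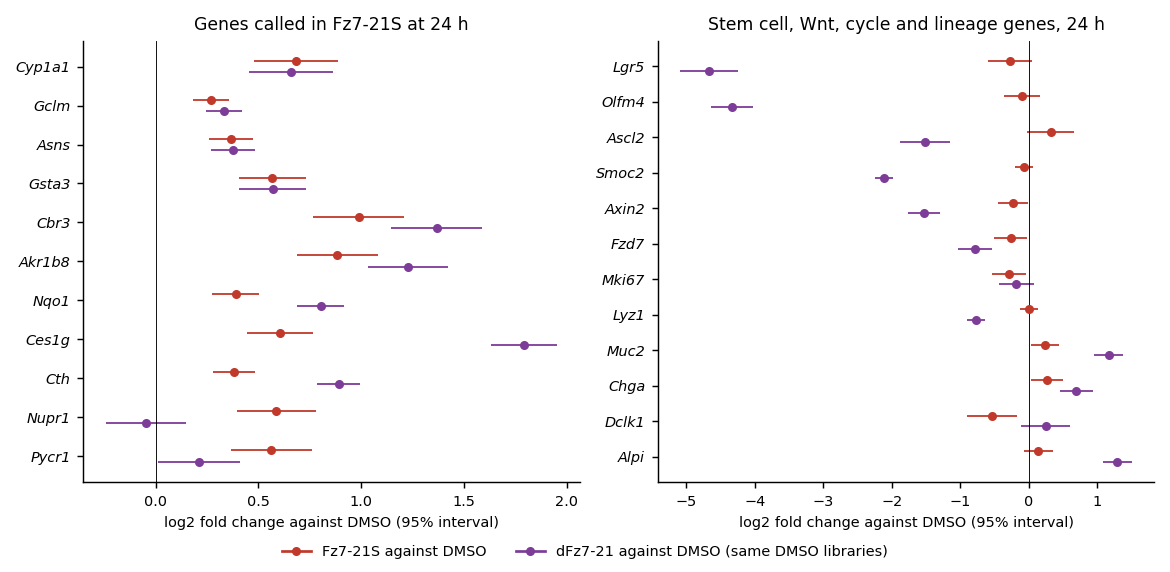
Log2 fold change against DMSO at 24 h, with 95% intervals, for Fz7-21S (red) and dFz7-21 (purple), which share the DMSO libraries; left, 11 genes called in Fz7-21S, right, 12 stem cell, Wnt, proliferation and lineage genes. Intervals for Cyp1a1, Asns and Gsta3 overlap between the peptides, Nupr1 is raised with Fz7-21S only, and Lgr5 and Olfm4 lie below -4 with dFz7-21 only.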

How the data were processed

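Polyadenylated RNA of mouse small-intestinal organoids was measured in 24 libraries (6 groups of 4), extracted with an RNeasy Micro kit, per the labels' protocols. The deposited files give 2 columns per sample. Per the file headers, the count is the number of reads aligning uniquely to a gene model, and the RPKM is that count per length, adjusted by a size factor per sample; the authors' RPKM values entered no test. The submitters' processing notes list GSNAP and the GRCm38 build. The version of the aligner, the annotation and any use of strand were not given in the sources used here. Of 36528 gene IDs, 31049 took a symbol from RefSeq and 78 from GENCODE; 5401 had none and held 2.54 to 3.5% of counts.

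Counts were fitted in edgeR 4.0.16 (R 4.3.3) with TMM factors, filterByExpr on the 6 groups and a robust quasi-likelihood F test, with Benjamini-Hochberg adjustment over 15429 genes and calls at an adjusted p below 0.05. The 6 h, 24 h, change-of-effect and peptide comparisons came from 1 fit of 24 libraries with a mean per group. The effect over both times came from the 16 libraries with time as a block. Levels are CPM on TMM-scaled library sizes. Libraries of 1 group differed beyond counting noise, so all were kept as separate replicates. The floor of 3 counts and the intervals do not replace replicate error. Alternatives were DESeq2 1.42.0, other size factors, no filter, a minimum fold of 1.2, a replicate block, a fit of the 16 libraries and left-out libraries.

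The members and gene lists were chosen with earlier results of these data known. Genes named were, per effect, the 10 largest called changes in each direction with an established symbol, no overlap between groups and mean log2 CPM at or above 2; the 5 smallest p for the change between times; the 4 smallest p of each list described; and 12 fixed stem cell, Wnt and lineage genes. The remaining genes called at 24 h were named after their values were seen. Lists are described by counts and medians, with no test.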

Additional observations from a re-analysis of the deposited data

Results flagged for a closer look

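In 13 of 164 groups of 4 values (41 genes), 1 library stood far from the other 3 by Dixon's criterion; chance alone gives about 1 in 20. 5 of the 13 were replicate 4 of Fz7-21S at 24 h. In that library Mgst2 was at 487 CPM, against 261 to 288 CPM in the other 3, Sec61b at 42.1 (others 21.3 to 23.1), Selenos at 132 (others 90.9 to 93.4) and Gsta2 at 7.46 (others 5.51 to 5.66), and the zinc importer Slc39a8 was low at 29.9 (others 41 to 42.2). Among the other Fz7-21S libraries, Alpi was at 69.2 CPM in replicate 3 at 24 h (others 54.8 to 56.3). At 6 h Lgr5 was at 44.3 in replicate 2 (others 35.7 to 36.8), Herpud1 at 86.4 in replicate 3 (others 89.9 to 90.3) and Mt4 at 2.87 in replicate 4 (others 3.27 to 3.34). Among DMSO libraries, Cth was at 113 CPM in replicate 3 at 6 h (others 103 to 104) and Muc2 at 108 in replicate 2 at 6 h (others 122 to 124). At 24 h, replicate 3 of DMSO held Gpt2 at 31.6 (others 30.6 to 30.7) and Slc39a8 at 51.8 (others 43.9 to 45.2).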

How the results depend on the processing

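Of 1826 recomputed values for the named genes (71 gene and comparison pairs, 27 settings), 1748 kept their side of the threshold, 57 lost the call and 21 gained one. Among the 1748, 37 that were called in neither fit had the opposite sign. Of the called values, 0 changed sign. At 6 h (1 call), a minimum fold of 1.2 gave 0 calls, leaving out DMSO 6 h replicates 1 and 2 gave 0, leaving out these and Fz7-21S 24 h replicate 4 gave 0, DESeq2 gave 4, and leaving out dFz7-21 24 h replicate 3 gave 29 (28 lower, among them Col1a1, Fn1 and Sparc); leaving out single libraries gave 0 to 1. At 24 h (40 calls), a minimum fold of 1.2 gave 2, a fit of the 16 libraries alone 22 and DESeq2 118; leaving out single libraries gave 22 to 1390. Over both times (2 calls), no filter gave 1, a minimum fold of 1.2 gave 1, the mean of the time contrasts in the fit of 24 gave 28, leaving out DMSO 6 h replicates 1 and 2 gave 1, leaving out all 3 libraries that stood apart gave 19, and DESeq2 gave 32; leaving out single libraries gave 1 to 28. Leaving out Fz7-21S 24 h replicate 4 with DMSO 24 h replicate 2, an alternative chosen after seeing the data, gave 25 over both times and 31 at 24 h. For the change between times (0 calls), leaving out the 3 libraries gave 1 (Pycr1) and DESeq2 gave 8; leaving out single libraries gave 0. The cause of these differences was not tested. Where 2 libraries remain in a group, they are assumed to vary like the other groups. Median log2 fold changes over all genes moved by under 0.02.

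The replicate numbers did not pair the libraries: 2 of 8 same-numbered pairs of Fz7-21S and DMSO deviations had a correlation above 0.1 (range -0.349 to 0.192), and 2 Fz7-21S libraries correlated best with their own number. With the replicate block, 1 gene was called at 6 h, 35 at 24 h (34 higher, 1 lower; 33 of the 40), 3 over both times (Cyp1a1 and Acta1 higher, Ptn lower) and 0 for the change between times. Gclm over both times then had an adjusted p of 0.0553 with a log2 fold change of 0.23.

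With 4 libraries a group, intervals of about ±0.22 on the log2 scale limit what could be seen at the median gene. Values near 0.1 CPM rest on about 3 counts. Doses, strain and independence of replicates are not given in the labels, and overlapping gene models cannot be told apart without strand.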

Other observations

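Some gene lists described nowhere above also had members past an unadjusted p of 0.05, with none called at either time. Over all genes, 2.06% were higher and 1.92% lower at that p at 6 h, and 13.9% higher and 9.91% lower at 24 h. At 6 h, 5 of 26 NF-kB targets and epithelial chemokines were higher and 0 lower (median log2 fold change 0.09), 3 of 27 immediate early genes were higher and 0 lower (median 0.10), and 0 of 29 interferon-stimulated genes were higher and 8 lower (median -0.18). Without replicates 1 and 2 of DMSO at 6 h, the interferon median was -0.06, with 1 higher of 30 tested. At 24 h, 14 of 32 lysosome and autophagy genes were higher and 2 lower (median 0.13, and 0.07 without replicate 4 of Fz7-21S). Of 29 enteroendocrine genes, 9 were higher and 1 lower (median 0.16, and 0.10 without that library). With that library included, 1 of 30 G2 and mitosis genes was higher and 9 lower (median -0.09). Leaving it out lowered the number of all genes at that p in either direction from 3673 of 15429 to 1182 of 15709.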
